A study of Mus musculus with 96 samples.

Results

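Growth hormone reaches the hepatocyte through its receptor, and the kinase bound to the receptor phosphorylates the transcription factors STAT5A and STAT5B, which move to the nucleus and switch on target genes. Among these targets are the hormone IGF-1, the protein that holds IGF-1 in the circulation, and inhibitors that shut the receptor off again. In the male mouse the hormone is released in bursts, so STAT5 activity in liver comes and goes, and the pathway sets much of the difference between male and female liver. The 8 genes described here were fixed by name and taken from 25095 gene symbols: the receptor Ghr, the factors Stat5a and Stat5b, the secreted proteins Igf1 and Igfals, the feedback inhibitors Socs2 and Cish, and the repressor Bcl6, which competes with STAT5 at some of its sites and is itself lowered by growth hormone. Values are RPKTM (reads per kilobase of transcript, 10 times the scale of RPKM), a length-scaled level, and each gene was read from its transcript with the highest mean in a table.

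RNA was sequenced from hepatocytes and from liver macrophages (LMs) of male C57BL/6J mice that had eaten a high fat and sucrose diet for 4 weeks, with 3 libraries for each of 4 genotypes at ZT4, ZT10, ZT16 and ZT22, 96 libraries in all. Zeitgeber time (ZT) counts hours from the start of the light phase, and darkness began at ZT12. Mice with floxed alleles were injected at 8 weeks of age with an adeno-associated virus whose hepatocyte-specific TBG promoter drove GFP (Control) or Cre. Cre was meant to delete the genes of REV-ERBα (Nr1d1) and REV-ERBβ (Nr1d2), repressors of the clock (labelled ReverbhDKO, here RevDKO), both genes with Scap, which encodes the escort of the lipid-regulating SREBP factors (Reverb/ScaphTKO, here RevScapTKO), or Scap alone (ScaphKO, here ScapKO). Which floxed alleles each Control mouse carried is not given in the sources used here, LMs carried no deletion by design, and the ScapKO libraries were normalized in tables of their own, so they were compared only with each other.

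The check of the labels was mixed. Scap averaged 495 RPKTM in hepatocytes of Control mice, 536 in those of RevDKO and 209 in those of RevScapTKO, but transcripts of Nr1d1 and Nr1d2 were not lower in the libraries labelled RevDKO: Nr1d1 was higher by 1.55 on the log2 scale (adjusted p = 8.87e-05) and Nr1d2 by 0.62 (adjusted p = 0.0626), and where the deleted exons lie relative to the reads counted was not tested. All 10 hepatocyte markers were detected in the hepatocyte libraries, and their summed level ranged from 478414 to 1371734 RPKTM over the 3 genotypes. The summed level of 10 macrophage markers in those same libraries had medians of 884 RPKTM (Control), 1079.7 (RevDKO) and 2860.1 (RevScapTKO), and all 10 were called higher in RevScapTKO than in RevDKO, with 7 of 8 stellate and 6 of 8 endothelial markers. In the LM libraries of these genotypes the hepatocyte marker sum (medians from 100699.9 to 105765 RPKTM) stayed above the macrophage marker sum (medians from 9009 to 17771), whereas in ScapKO LMs the order was the other way (54802 against 117986). Among the ScapKO hepatocyte libraries 3 stood apart: ZT22 replicate 1 had Alb at 196187 RPKTM against 908028 in the other 11, ZT22 replicate 2 had the highest macrophage marker sum (3397) and Scap at 1006 RPKTM, and ZT16 replicate 3 had Xist at 129.7 RPKTM in a library labelled male. Quantile normalization gave all libraries of a table the same sorted values, so a gap in Alb is a step in rank. In the hepatocyte table Alb took only the values 298478, 448178 and 838976 RPKTM. These steps also enter the hepatocyte marker sums. Depth is unknown for all libraries, and in bulk samples fewer cells of a type and less RNA per cell cannot be told apart.

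Promoter sequences were available for 7 of the 8 genes. They are shown for the members whose promoter window, 250 bases before to 50 after the RefSeq start site in build GRCm38.p6, holds the letters TTCNNNGAA, the motif bound by STAT5 and, in related form, by BCL6. The motif reads the same on both strands and was found in 8.3% of 32851 promoters of the same length and in 5 of the 13 promoters of the members, those of Cish, Igfals and Bcl6. Capitals mark the motif.
Bcl6, chr16:23981284-23981533, minus strand, the 250 bases before the start: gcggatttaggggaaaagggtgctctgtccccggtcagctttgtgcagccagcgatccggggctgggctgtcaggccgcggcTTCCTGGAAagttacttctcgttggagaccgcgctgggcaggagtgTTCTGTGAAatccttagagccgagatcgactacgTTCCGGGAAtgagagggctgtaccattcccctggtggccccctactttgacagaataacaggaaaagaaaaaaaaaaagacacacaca
Cish, chr9:107296654-107296683, plus strand, at the start site: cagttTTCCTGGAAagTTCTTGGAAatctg
Igfals, chr17:24877598-24877626, plus strand: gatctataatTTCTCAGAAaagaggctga
Igfals, chr17:24878163-24878191, plus strand: ctgccaggtgTTCCTAGAAgaggccctgg
In the Bcl6 promoter shown, 3 copies began at -168, -122 and -88 from the start, and its other annotated promoter held a single copy at -118. In Cish a pair of copies lay at the start site itself, and in Igfals single copies began at -236 and -58 from 2 of its 3 annotated starts. The letters AGGTCA, which form the core of the site bound by REV-ERBs (read on both strands), were in 16.3% of all promoters and in 6 of the 13, those of Stat5a, Stat5b, Igf1 and Igfals. The E-box CACGTG, read by CLOCK and its partner and by SREBP-related factors, was in 7.15% of all promoters and in 1 of the 13, that of Bcl6, and the sterol element TCACNCCAC was in 1.24% and in none. A match describes letters and says nothing of binding.

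In Control hepatocytes the 8 genes spanned a wide range of RPKTM levels. Igf1 (chr10:87321797-87399792, build mm9, plus strand) was highest at 2174 ± 372 RPKTM (SD, n = 12), followed by Ghr (chr15:3267755-3531842, minus strand) at 1795 ± 277 and Igfals (chr17:25015692-25018956, plus strand) at 742 ± 148. The 12 libraries of Igf1 (1569.9 to 2519) and Ghr (1314 to 2294) overlapped, while Ghr and Igfals (537 to 933) did not. Stat5b (chr11:100642045-100674684, minus strand) averaged 207 ± 33.5 RPKTM and its neighbour Stat5a (chr11:100720665-100746483, plus strand), which points away from it, 62.5 ± 13.8, so every library held more Stat5b (153 to 278) than any held Stat5a (40.3 to 82.8). Bcl6 (chr16:23965136-23981369, minus strand) averaged 162 ± 112 RPKTM and overlapped Stat5b. The inhibitors were lowest, Cish (chr9:107198990-107205115, plus strand) at 27.3 ± 19.2 and Socs2 (chr10:94874124-94878118, minus strand) at 14.5 ± 10.4 RPKTM, with overlapping libraries. These positions span the whole transcript used, exons and introns together, and all 8 genes passed the filter on low values in each of the 4 tables.

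**Figure D1:**
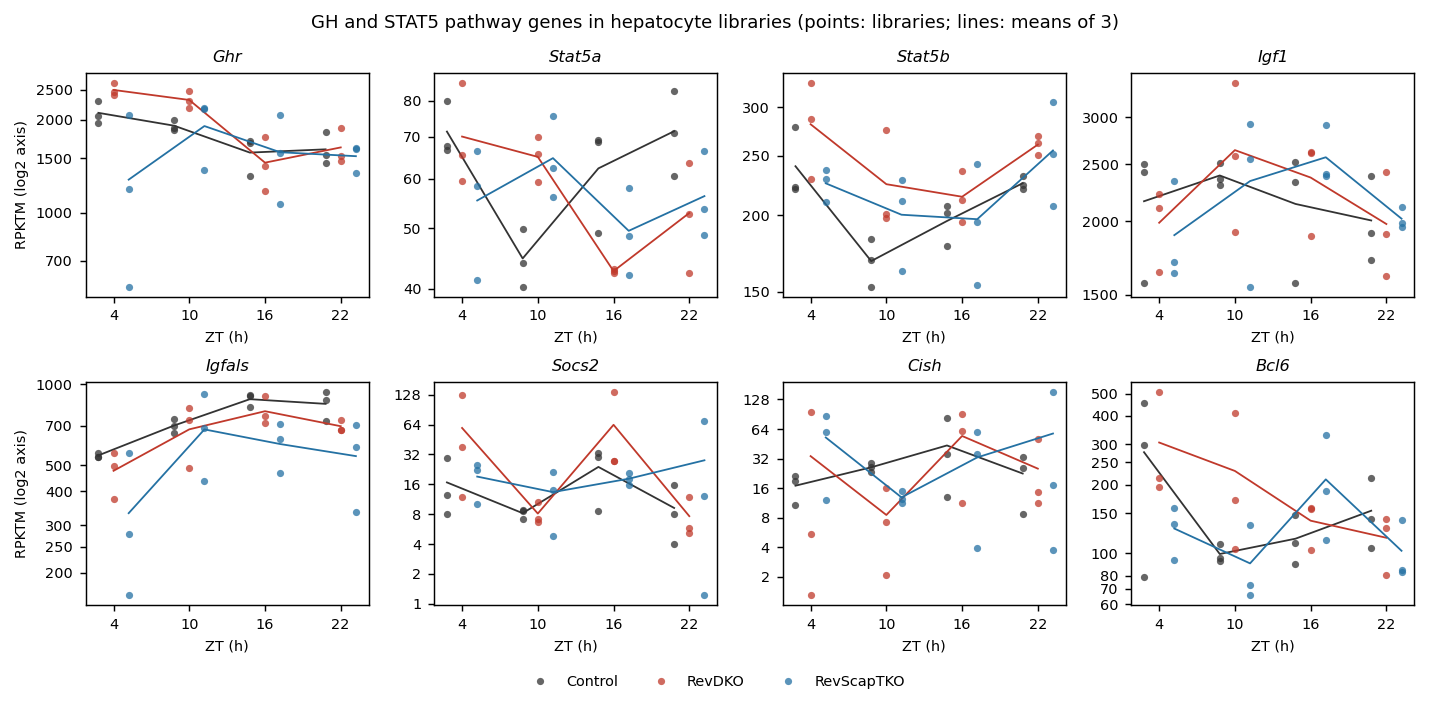
Levels of the 8 genes in hepatocyte libraries of Control, RevDKO and RevScapTKO mice, in RPKTM on a log2 axis that does not start at 0, against zeitgeber time in hours. Points are libraries, shifted sideways by genotype, and lines join the means of 3. The 577 RPKTM library of Ghr and the 165 RPKTM library of Igfals at ZT4 are the same RevScapTKO library, and Socs2 and Cish spread more within a group than the other 6 genes.

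RevDKO against Control asked what loss of the REV-ERBs does in hepatocytes. None of the 8 genes differed in the mean over the day by limma with Benjamini-Hochberg adjustment over 13326 genes, of which 4.43% were called, and 1 of the 8 had an unadjusted p under 0.05. That gene was Stat5b, the more abundant STAT5 factor in these libraries, at 245 ± 41 RPKTM in RevDKO against 207 ± 33.5 in Control (log2 difference 0.24 ± 0.09 SE, adjusted p = 0.138). The others lay between -0.54 ± 0.55 for Cish and 0.58 ± 0.41 for Socs2 on the log2 scale, and Igf1 was the least different (0.03 ± 0.12). At single time points 0 of the 8 were called at ZT4, ZT10, ZT16 or ZT22, where 0.585%, 1.2%, 0.3% and 0.488% of genes were, and 0, 2, 1 and 1 members had an unadjusted p under 0.05.

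Libraries of Ghr, Stat5a, Stat5b and Cish separated from Control at some times without a call. The members without overlap were 1 of 8 at ZT4, 4 at ZT10, 1 at ZT16 and 1 at ZT22, where 12.2%, 17.1%, 14.6% and 16.3% of all genes did not overlap. Cish in RevDKO at ZT10 was wholly below Control, at 2.11, 7.31 and 16.2 RPKTM against 28.6, 23.3 and 26.4. Ghr, the receptor, read 2457, 2618 and 2405 RPKTM in RevDKO at ZT4 against 2059.8, 2294 and 1954 in Control. At ZT10 it read 2475, 2173 and 2294 against 1884, 1849 and 1999. The groups did not overlap at either time, yet the log2 differences of 0.25 and 0.28 stayed near their SE of 0.27 (adjusted p = 0.863 and 0.942), and at ZT16 and ZT22 the libraries overlapped.

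Stat5a had its lowest group mean at ZT10 in Control (44.7 RPKTM) and at ZT16 in RevDKO (42.7). In Control it read 67.7, 66.7 and 79.8 RPKTM at ZT4, then 40.3, 49.9 and 43.9 at ZT10. It then read 69.3, 49.1 and 68.6 at ZT16 and 82.8, 71.1 and 60.6 at ZT22. The ZT16 library at 49.1 lay within the range of ZT10. In RevDKO it read 59.4, 65.6 and 85.3 at ZT4, 70.1, 65.8 and 59.2 at ZT10, 42.7, 43 and 42.3 at ZT16, and 52.7, 63.6 and 42.3 at ZT22. The lowest value, 42.3, occurred at both ZT16 and ZT22. Without overlap, all 3 RevDKO libraries were above Control at ZT10 (log2 difference 0.53 ± 0.20) and below it at ZT16 (-0.52 ± 0.20), with adjusted p of 0.344 and 0.635. The test of a changed 24 h pattern gave Stat5a an unadjusted p of 0.00292 and an adjusted p of 0.374 by limma, and no member passed it, against 0.203% of genes called. Stat5b was also higher without overlap in RevDKO at ZT10 (275, 201 and 198 RPKTM against 169, 183 and 153) and at ZT22 (262, 251 and 269 against 224, 232 and 220.5), with adjusted p of 0.511 and 0.87.

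**Figure D2:**
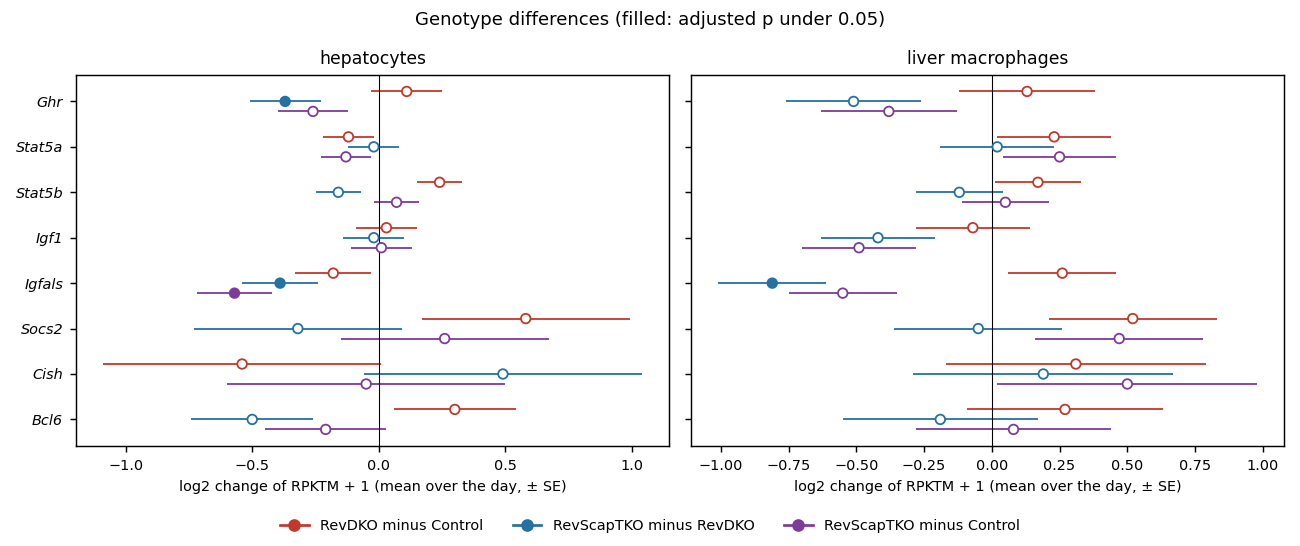
Log2 difference of RPKTM + 1 in the mean over the day, with its standard error, for each gene in hepatocytes (left) and liver macrophages (right) and for 3 pairs of genotypes, where filled points have an adjusted p under 0.05. The filled points are Ghr (-0.37) and Igfals (-0.39) for RevScapTKO minus RevDKO and Igfals (-0.57) for RevScapTKO minus Control in hepatocytes, and Igfals (-0.81) for RevScapTKO minus RevDKO in macrophages.

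RevScapTKO against RevDKO asked what further loss of Scap does, in a comparison where 26.2% of the 13326 hepatocyte genes were called. Of the 8 genes 2 fell, Ghr and Igfals. Igfals encodes the acid-labile subunit that keeps IGF-1 in a long-lived complex in blood. Ghr went from 1971 ± 494 RPKTM in RevDKO to 1569 ± 495 in RevScapTKO (log2 difference -0.37 ± 0.14 SE, adjusted p = 0.045 by limma). Igfals went from 662 ± 152 to 538 ± 212 RPKTM (-0.39 ± 0.15, adjusted p = 0.0478). Igf1, the hormone itself, stood at 2244 ± 517 and 2205 ± 461 RPKTM (-0.02 ± 0.12), and Bcl6 at 198 ± 129.6 and 133 ± 72 (-0.50 ± 0.24, adjusted p = 0.124). Counting both directions, 2 of 8 lay near the share among all genes.

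Both calls were lost without ZT4, that of Ghr also without ZT10 (-0.39, adjusted p = 0.0766) and that of Igfals also without ZT16 (adjusted p = 0.106) or ZT22 (adjusted p = 0.114). At ZT4 Ghr read 2069.5, 577 and 1189.6 RPKTM in RevScapTKO against 2457, 2618 and 2405 in RevDKO, without overlap (log2 difference -1.15 ± 0.27, adjusted p = 0.00808), and it was the only member called at a single time point in this comparison, with 9.28% of genes called at ZT4. Ghr and Bcl6 were the 2 of 8 members without overlap there, against 24.1% of genes. The same RevScapTKO library, replicate 2, held the lowest Ghr and the lowest Igfals (165 RPKTM, against 554 and 278 in the other libraries of the group). Without it the ZT4 difference of Ghr was -0.67 (adjusted p = 0.131), and the mean differences over the day were -0.25 for Ghr (adjusted p = 0.0998) and -0.29 for Igfals (adjusted p = 0.113). Leaving out all of ZT4 gave -0.11 for Ghr (adjusted p = 0.707) and -0.29 for Igfals (adjusted p = 0.258). At ZT10, ZT16 and ZT22 none of the 8 was called, beside 0.908%, 1.37% and 2.35% of genes, with 1, 0 and 0 members at an unadjusted p under 0.05. Of all 13326 genes none had a changed 24 h pattern after adjustment by limma (0%, with 674 at an unadjusted p under 0.05), and 2 members had an unadjusted p under 0.05, Ghr (0.011) and Bcl6 (0.0317).

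Against Control, where 35.9% of genes were called, Igfals fell in RevScapTKO from 742 ± 148 to 538 ± 212 RPKTM (-0.57 ± 0.15, 1.48-fold lower, adjusted p = 0.00327), and no other member passed. At ZT16 the RevScapTKO libraries read 708, 623 and 467 RPKTM against 902, 825 and 909 in Control, and at ZT22 583, 336 and 703 against 933, 873 and 727, without overlap at either time. It was 1 of 8 such members at each time, against 22.5% and 24.4% of genes. This call held in each of 24 fits without 1 library, with adjusted p from 0.000102 to 0.00904, and was lost without ZT4 (-0.46, adjusted p = 0.0503). Macrophage markers moved with the genotype in these libraries (medians above): with their score as a covariate, the differences were -0.18 for Ghr (adjusted p = 0.78) and -0.18 for Igfals (adjusted p = 0.796) against RevDKO, and -0.34 for Igfals (adjusted p = 0.385) against Control. Within groups, the deviations of Ghr and Igfals from their group mean had r of -0.28 and -0.29 with that score over 36 libraries (Spearman's rho -0.21 and -0.24, permutation p adjusted over 8 genes = 0.309 for each r).

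Over the day within a genotype, limma found no difference between time points for any of the 8 in Control, RevDKO or RevScapTKO hepatocytes, where 6.61%, 2.48% and 0.87% of genes were called and 2, 3 and 1 members had an unadjusted p under 0.05. JTK_CYCLE, run after the study's rule for rhythms on the series entered 2 times with a peak to trough ratio above 1.5, called Igfals and Stat5a in Control (2 of 8, against 20.8% of genes), Ghr, Igfals and Stat5a in RevDKO (3 of 8, against 20.5%), and none in RevScapTKO (12% of genes). Igfals peaked at ZT16 in Control (peak to trough ratio 1.61, exact p = 0.000781) and in RevDKO (1.66, p = 0.0048). Stat5a peaked at ZT22 in Control (1.6, exact p = 0.0107) and at ZT4 in RevDKO (1.64, p = 0.0107). Ghr peaked at ZT4 in both, with a ratio of 1.34 in Control, under the minimum of the rule, and above it in RevDKO (JTK_CYCLE exact p = 0.000781). Entering a series 2 times lowers its p, and with the series entered once no member was called in any of the 8 sets of genotype and cell type.

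Socs2 and Cish, suppressors that STAT5 induces and that then dampen the receptor, were the most uneven of the 8 between libraries of the same group. In RevDKO at ZT4 Socs2 read 128, 37.9 and 11.8 RPKTM and Cish 95, 5.43 and 1.3. In RevScapTKO at ZT22 Socs2 read 1.22, 70.4 and 12.3 and Cish 3.73, 152 and 17.1. The same library was highest for both genes in each of these groups. Their within-group SD on the log2 scale was 1.52 for Cish and 1.13 for Socs2, above that of 99.9% and 99.4% of all genes tested, whose median was 0.38, while Stat5a (0.22) and Stat5b (0.20) were above 11.4% and 6.7%. The part of their low level in this spread was not tested. In LMs, where both were lower, their SD was above that of 48.4% (Socs2) and 97.9% (Cish) of genes. No genotype difference of Socs2 or Cish was called. In RevDKO minus Control their differences at single times reached -1.82 ± 1.10 on the log2 scale for Cish (ZT10, adjusted p = 0.784). For Socs2 they reached 1.37 ± 0.83 (ZT4, adjusted p = 0.65). Over the means of the day, Socs2 and Cish had adjusted p of 0.525 and 0.691 in RevDKO minus Control. In RevScapTKO minus RevDKO these were 0.596 and 0.536.

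The deviations of Socs2 and Cish from their group means went together over the 36 hepatocyte libraries (r = 0.70, rho = 0.54). The permutation p, drawn within groups and adjusted over the 28 pairs of members, was 0.0253 for r and 0.0748 for rho, and r was 0.58 without the 2 libraries farthest from the median of Socs2. Among 13325 genes Socs2 ranked 11 from the top in its r with Cish, and the median gene had 0.01. In the 36 LM libraries of these genotypes the pair had r = 0.10 and rho = 0.09 (adjusted permutation p = 0.799 and 0.769). Over 12 libraries each, r was 0.64 in ScapKO hepatocytes and 0.79 in ScapKO LMs (adjusted permutation p = 0.667 and 0.217). Of the other pairs in the 36 hepatocyte libraries, Stat5a went with Bcl6 (r = 0.55, rho = 0.61, adjusted permutation p = 0.0216 and 0.0277). It also went with Stat5b (r = 0.54, rho = 0.51, adjusted permutation p = 0.0253 and 0.0748). Without the 2 farthest libraries r was 0.57 and 0.53. These pairs were looked at after their values were seen, and libraries share their normalization.

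**Figure D3:**
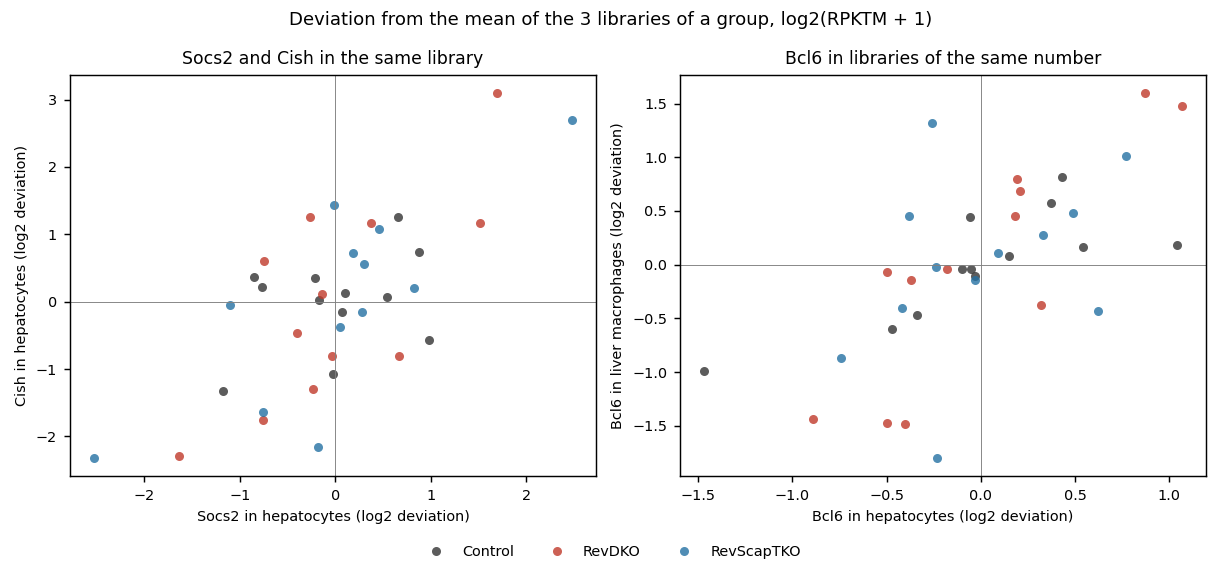
Deviation of each library from the mean of its 3-library group on the log2(RPKTM + 1) scale, coloured by genotype. Left, Cish against Socs2 in the same 36 hepatocyte libraries (r = 0.70). Right, Bcl6 in the liver macrophage library against Bcl6 in the hepatocyte library with the same genotype, time and number (r = 0.66). In the 12 ScapKO pairs, which are not drawn, r was -0.22.

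All 8 transcripts were also detected in LM libraries, where hepatocyte markers were abundant, and the part of hepatocyte transcript in these levels was not tested. Control LMs averaged 435 ± 122 RPKTM for Igf1, 173 ± 81.1 for Ghr, 165 ± 86.7 for Igfals, 98.5 ± 24.6 for Stat5b, 40.9 ± 33.9 for Bcl6, 30.6 ± 13.6 for Stat5a, 7.18 ± 4.08 for Socs2 and 6.03 ± 4.63 for Cish. In RevDKO minus Control none of the 8 was called by limma (0.574% of 13947 genes, and 0 members at an unadjusted p under 0.05). In RevScapTKO minus RevDKO 1 of 8 was, against 3% of genes: Igfals fell from 195 ± 83.8 to 112 ± 52.3 RPKTM (log2 difference -0.81 ± 0.20, 1.76-fold lower, adjusted p = 0.0167). In RevScapTKO minus Control none was (3.76% of genes), with 2 members at an unadjusted p under 0.05, Igfals (-0.55 ± 0.20, adjusted p = 0.125) and Igf1 (-0.49 ± 0.21, adjusted p = 0.199).

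Igfals in RevScapTKO LMs read 42, 61 and 58.3 RPKTM at ZT10 against 227, 90.4 and 121 in RevDKO. At ZT16 it read 118, 158 and 148 against 226, 243 and 257, and at ZT22 195, 125 and 179 against 300.3, 319.9 and 231. The groups did not overlap at these 3 times and did at ZT4. Members without overlap numbered 2, 2 and 3 of 8 at ZT10, ZT16 and ZT22, against 9.91%, 11.8% and 14.2% of genes. The call held in each of 24 fits without 1 library (adjusted p from 0.00844 to 0.0455) and without the 3 LM libraries whose Alb stood more than 10 times above the median (-0.83, adjusted p = 0.00434). That gap in Alb too is a step in rank of the normalized values. As for the call, leaving out time points changed it. It was lost without ZT10 (-0.64, adjusted p = 0.187), without ZT16 (-0.83, adjusted p = 0.0595) or without ZT22 (-0.83, adjusted p = 0.0621). Of 10 hepatocyte markers 3 were called in this comparison, all lower in RevScapTKO, and with the hepatocyte marker score as a covariate Igfals differed by -0.46 (adjusted p = 0.249) and Igf1 by -0.84 (adjusted p = 0.03).

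**Figure D4:**
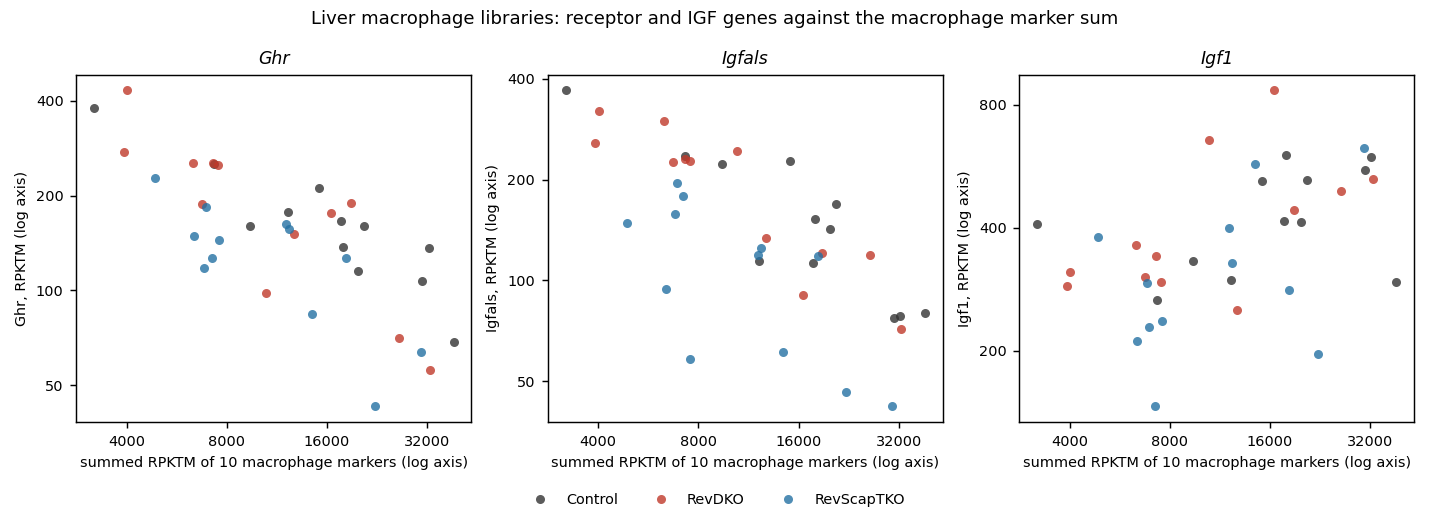
Levels of Ghr, Igfals and Igf1 in the 36 liver macrophage libraries of 3 genotypes against the summed level of 10 macrophage markers, in RPKTM, all axes logarithmic. Libraries with more macrophage marker transcript tended to hold less Ghr and Igfals. Ghr and Igfals read 432 and 319.9 RPKTM in a RevDKO library of ZT22 with a marker sum of 4022. They read 55.7 and 71.3 RPKTM in a RevDKO library of ZT4 with a sum of 32594. Igf1 (312 and 525 RPKTM in the same libraries) did not fall along the axis. These libraries also differ in time of day, and its part was not tested.

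Ghr and Igfals went together in LM libraries beyond their groups (r = 0.77, rho = 0.68, permutation p adjusted over 28 pairs = 0.00308 and 0.00504, and r = 0.65 without the 2 farthest libraries). Stat5b and Igf1 went in opposite directions (r = -0.66, rho = -0.61, adjusted permutation p = 0.0211 and 0.0405, and -0.59 without the 2 farthest libraries). With the hepatocyte marker score the deviations had r = 0.45 for Ghr and 0.40 for Igfals (rho = 0.51 and 0.48, permutation p adjusted over 8 genes = 0.0908 for each r and 0.0468 for each rho), and -0.45 for Igf1 (rho = -0.45, adjusted permutation p = 0.0908 and 0.0716), with r of 0.49, 0.45 and -0.38 without the 2 farthest libraries.

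Time of day left no call by limma among the 8 genes in LMs of Control, RevDKO or RevScapTKO mice, where 0.0645%, 2.82% and 0.0645% of genes were called and 1, 2 and 1 members had an unadjusted p under 0.05. No gene at all had a changed 24 h pattern in RevDKO minus Control (0%, with 767 at an unadjusted p under 0.05) or in RevScapTKO minus RevDKO (0%, with 498), and no member had an unadjusted p under 0.05 in either. JTK_CYCLE called Igfals in all 3 genotypes, with its peak at ZT22 and ratios of 2.53 in Control (exact p = 0.0226), 2.63 in RevDKO (p = 0.0447) and 3.09 in RevScapTKO (p = 0.000781). Stat5a was also called in RevDKO (ratio 2.04, peak at ZT10, exact p = 0.0447). That made 1 of 8 against 11.2% of genes, 2 of 8 against 16.1% and 1 of 8 against 8.57%.

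Deviations in hepatocyte libraries were set against those in the LM library of the same genotype, time and number. In Control, RevDKO and RevScapTKO mice, Bcl6 had the highest correlation of the 8 genes. Over 36 such pairs r was 0.66 and rho 0.68 (permutation p adjusted over 8 genes = 0.00664 and 0.00408, and r = 0.61 without the 2 farthest), above 99.1% of 12640 genes, whose median r was 0.10. The RevDKO hepatocyte libraries with the most Bcl6, ZT4 replicate 3 (507) and ZT10 replicate 1 (411), had LM partners that were the highest of their group (199 and 92.3 RPKTM), but the Control library at 454 RPKTM, ZT4 replicate 3, had a partner at 84.4, below the 132 RPKTM of replicate 2. Cish had r = 0.49 (rho = 0.49, adjusted permutation p = 0.0381 and 0.0636, and 0.47 without the 2 farthest), Stat5b r = 0.49 (rho = 0.43, 0.0381 and 0.0765, and 0.58) and Socs2 r = 0.40 (rho = 0.41, 0.0381 and 0.0765, and 0.37). The relation of Bcl6 was not seen in the 12 ScapKO pairs. There r was -0.22 and rho -0.08 (adjusted permutation p = 0.906 and 0.91), above 24.6% of 12356 genes. Stat5b (r = 0.74), Cish (0.73) and Socs2 (0.64) were positive there too, with adjusted permutation p for r of 0.145, 0.306 and 0.35. The labels do not say whether libraries with the same number came from the same liver, and these relations were looked at after their values were seen.

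In ScapKO hepatocytes time of day did separate the libraries of Bcl6. It read 119.7, 102 and 93.5 RPKTM at ZT4, then 302, 509 and 631 at ZT10. It read 471, 617 and 631 at ZT16 and 698, 352 and 937 at ZT22. All 9 later libraries were above the 3 of ZT4, with a range between time point means of 2.54 on the log2 scale (5.81-fold, adjusted p = 0.00287 by limma, where 1.3% of 12724 genes were called), and Bcl6 was 1 of 8 members called while 6 had an unadjusted p under 0.05. Bcl6, Cish and Igf1 were the 3 of 8 members whose ZT4 libraries lay wholly to one side of the later ones, against 2.53% of genes. Without the ZT22 libraries, 2 of which stood apart, the range was 2.43 (adjusted p = 0.000263), and without the ZT16 library with high Xist it was 2.54 (adjusted p = 0.00966). In the hepatocytes of the other 3 genotypes, normalized apart, ZT4 was not the low point of Bcl6 (Control libraries 78.9, 298 and 454 RPKTM at ZT4), and whether its daily change differs between ScapKO and Control was not tested.

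**Figure D5:**
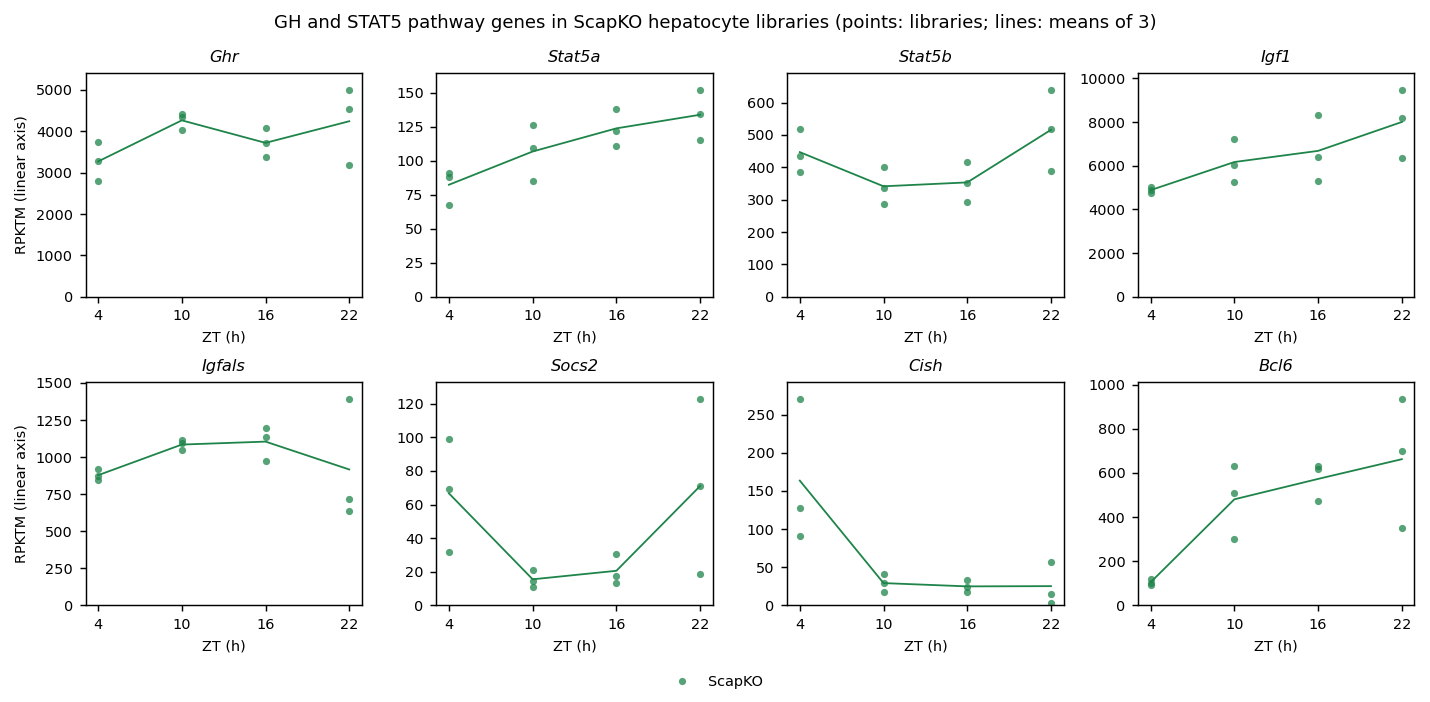
Levels of the 8 genes in the 12 ScapKO hepatocyte libraries, in RPKTM on linear axes that start at 0, against zeitgeber time in hours. Points are libraries and lines join the means of 3. Bcl6 is lowest at ZT4 (93.5 to 119.7 RPKTM) and Cish highest there (91.5 to 271).

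Cish and Socs2 ran the other way at ZT4 in ScapKO hepatocytes. Cish read 271, 91.5 and 128 RPKTM at ZT4, 40.7, 29.5 and 17.6 at ZT10, 24.7, 33.2 and 17 at ZT16, and 3.57, 14.8 and 57.5 at ZT22. Each ZT4 library was above each later one, with a range of 3.19 on the log2 scale (adjusted p = 0.0989) over all 4 times and 2.56 (adjusted p = 0.00305) without ZT22. Socs2 read 99.1, 69.1 and 31.7 RPKTM at ZT4 against 21.1, 10.7 and 14.8 at ZT10 and 17.4, 30.8 and 13.6 at ZT16, but 18.7, 123 and 71.3 at ZT22 (range 1.94, adjusted p = 0.201, and 1.94 with adjusted p = 0.0321 without ZT22). Igf1 read from 4729 to 5048 RPKTM at ZT4 and from 6361 to 9482 at ZT22 (range 0.69, adjusted p = 0.28). JTK_CYCLE called 5 of the 8, namely Stat5b, Igf1, Socs2, Cish and Bcl6, each at an exact p = 0.0447, against 12.9% of genes, with ratios of 1.51, 1.64, 4.57, 6.54 and 6.3.

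In ScapKO LMs no gene passed the limma test between time points (0%, with 1195 at an unadjusted p under 0.05), no member had an unadjusted p under 0.05, and JTK_CYCLE called Bcl6 (ratio 1.63, exact p = 0.0447), 1 of 8 against 13.3% of genes. Igf1 averaged 2294 ± 516 RPKTM there and Ghr 322 ± 282. The library ZT22 replicate 2 had the highest hepatocyte marker sum (160410.2 RPKTM) and the lowest macrophage marker sum (22059), and it also held the most Ghr (1055 RPKTM), Stat5a (396) and Stat5b (1094) and the least Igf1 (1043). Over the 12 libraries the deviations of Ghr followed those of the hepatocyte marker score (r = 0.97, rho = 0.97, permutation p adjusted over 8 genes = 0.00624 for each, and r = 0.96 without the 2 farthest).

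Genes of the wider pathway were also tested in hepatocytes, where the share of all genes called was 4.43% in RevDKO minus Control and 26.2% in RevScapTKO minus RevDKO. Of 15 partners of receptor signalling tested, 1 was called in RevDKO minus Control: Irs2, an insulin and growth factor adaptor, rose from 109 ± 55.1 to 219 ± 90.6 RPKTM (log2 difference 1.04 ± 0.29, adjusted p = 0.0341). In RevScapTKO minus RevDKO 2 of the 15 rose, among them the phosphatase gene Ptpn2 (0.29 ± 0.11, adjusted p = 0.0402), while Jak2, the kinase of the receptor, was not among those called. Of 9 further genes of the IGF system none was called for RevDKO, and 2 rose in RevScapTKO minus RevDKO, the clearance receptor Igf2r (0.54 ± 0.11, adjusted p = 0.000647) and the binding protein Igfbp7 (0.59 ± 0.13, adjusted p = 0.00163), with macrophage, stellate and endothelial markers higher in the same libraries. The part of those cell types in these rises was not tested.

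Genes known for male-biased expression in mouse liver, a pattern set by growth hormone pulses, were called in both directions: 4 of 20 rose and 2 fell in RevDKO minus Control (4.43% of all genes called, median log2 difference 0.16, against -0.01 over all genes). Serpina12, which encodes the adipokine vaspin, rose from 35 ± 13.6 to 136 ± 31.7 RPKTM (2 ± 0.26, adjusted p = 2.46e-06). Moxd1 rose from 5.65 ± 17.6 to 41 ± 56 (3.35 ± 0.74, adjusted p = 0.00435). Its libraries ran from 0 to 61.4 RPKTM in Control and from 3.71 to 158 in RevDKO, with overlap. The filter keeps a gene that is high in 1 genotype alone, so low genes such as Moxd1 can enter these counts because they differ. Cyp4a12a, a fatty acid hydroxylase, fell from 426 ± 111 to 114 ± 42.6 RPKTM (-1.92 ± 0.20, adjusted p = 3.81e-08), and Susd4 fell from 68.8 ± 22.6 to 28 ± 16.5 (-1.39 ± 0.22, adjusted p = 8.51e-05). In RevScapTKO minus RevDKO 5 rose and 2 fell, 7 of 20 against 26.2% of all genes, the major urinary protein gene Mup20 by 1.86 ± 0.18 and Selenbp2 by 1.99 ± 0.35 on the log2 scale, and Cyp4a12a was lower again, by -1.85 ± 0.20, with Cyp4a12b (-1.78 ± 0.31). Cyp4a12a and Cyp4a12b, and Mup20 and its family, are near-identical copies whose reads may be split, so their separate values are uncertain.

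Female-biased genes were tested for 8 of 19 listed, those that passed the filter in these male livers, and they too went both ways. In RevDKO minus Control, with 4.43% of all genes called, 2 rose and 2 fell. Cyp17a1, a steroid hydroxylase, rose from 91.9 ± 57.8 to 707 ± 374 RPKTM (3.1 ± 0.31, adjusted p = 2.87e-08). Ntrk2 rose by 2 ± 0.42 (adjusted p = 0.00294). Its libraries ran from 0 to 6.46 RPKTM in Control and from 0 to 35.8 in RevDKO, with overlap. Acot3 fell from 42 ± 30.4 to 2.44 ± 2.64 (-3.56 ± 0.37, adjusted p = 4.44e-08). Cyp2b10 fell from 21.3 ± 21.8 to 5.06 ± 5.86 (-1.78 ± 0.49, adjusted p = 0.0278). As with Moxd1, the filter can let a low gene such as Ntrk2 enter this count because it differs. In RevScapTKO minus RevDKO, with 26.2% called, 1 rose and 3 fell. Cyp2a4 rose from 33.8 ± 11.4 RPKTM to 4084 ± 5425, with RevScapTKO libraries from 41.5 to 13136 that reached into the RevDKO range of 18.3 to 51.8 (log2 difference 4.6 ± 0.78, adjusted p = 6.28e-05), with reads that its near-identical paralog may share. Cyp17a1 (-1.66 ± 0.31), Atp6v0d2 (-1.14 ± 0.26) and Fmo2 (-0.86 ± 0.30) were lower. Of 11 liver factors that act beside STAT5, Cebpb fell in RevDKO (-0.60 ± 0.16, adjusted p = 0.0273), and in RevScapTKO minus RevDKO Cebpa fell (-0.41 ± 0.11, adjusted p = 0.00602) and the corepressor gene Ncor1 rose (0.36 ± 0.08, adjusted p = 0.00101).

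The same lists were counted in LMs. In RevDKO minus Control none of 15 receptor partners and 1 of 10 IGF system genes was called, with 3 of 20 male-biased, 2 of 8 female-biased and 0 of 12 factors, against 0.574% of all genes. In RevScapTKO minus RevDKO the numbers were 0, 0, 4, 2 and 0, against 3% of all genes. Hepatocyte markers summed to medians of 100699.9 to 105765 RPKTM in these libraries, and the part of hepatocyte transcript in these calls was not tested.

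The genes whose 12 group means in hepatocytes tracked each member most closely were, by Pearson's r on the log2 scale and as a description, Zfand6 (0.94), 2510002D24Rik (0.94) and Nat1 (0.92) for Ghr. Stat5b was nearest to Irs2 (0.92), Igfbp1 (0.92) and Cndp1 (0.91), and Stat5a to Rab24 (0.86), Amz2 (0.85) and 4930451G09Rik (0.82). For Igf1 they were Fopnl (0.93), Etnk2 (0.91) and Cox7a2l (0.88), and for Igfals Rps2 (0.98), Sgpp1 (0.97) and Lrrc41 (0.96). Socs2 was nearest to Mir6397 (0.83), Mrvi1 (0.83) and Frs2 (0.82), Cish to Sympk (0.90), Brd1 (0.90) and Nova2 (0.87), and Bcl6 to Tasp1 (0.91), Ccdc59 (0.91) and Dmbt1 (0.89). Group means share normalization, and a gene with the best of 13325 correlations over 12 points is chosen for being high.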

How the data were processed

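RNA from isolated hepatocytes and LMs was sequenced after ribosomal RNA removal with a stranded total RNA kit. The authors aligned reads with STAR to mm9 and counted RefSeq transcripts with HOMER, and versions and the strand setting of the counting are not given in the sources used here. The deposited values are RPKM on a 10-fold larger scale (RPKTM), quantile normalized by the authors in 4 separate tables, so all libraries of a table share the same set of sorted values, and depth, counting intervals and detection limits could not be had. No column belonged to other samples. Groups followed the sample titles. For ScapKO hepatocytes the cell type field read liver macrophage, and the titles were followed.

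The members and gene lists were chosen with earlier results of these data known. For each symbol the most abundant transcript of the table was taken, and genes with more than 5 RPKTM in at least 3 libraries were kept. Differences were tested with limma 3.58.1 (R 4.3.3, trend option) on log2(RPKTM + 1) with 1 mean per genotype and time, over 36 libraries of 3 genotypes or 12 of ScapKO. Adjustment was by Benjamini-Hochberg over all genes of the table, with a threshold of 0.05. The log2 scale with a pseudocount understates changes of low genes. Contrasts were the mean over the 4 time points, each time point in hepatocytes, a changed 24 h cosine and sine pattern, and any difference between time points. Comparisons with RevDKO share its libraries, as those with Control do.

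Rhythms were called by JTK_CYCLE after the rule of the study: series entered 2 times, p under 0.05 and a peak to trough ratio above 1.5. The periods tried, 18 and 24 h, were chosen here to suit the sampling interval, p was adjusted over the 7 patterns tried, a best period of 24 h was required, and the filter was read as at least 2 libraries above 5 RPKTM. Correlations of deviations from group means used 100000 two-sided permutations within groups (Python 3.11, NumPy 2.4.6, SciPy 1.17.1, pandas 2.3.3, with figures by Matplotlib 3.10.9). The named genes beyond the members were up to 4 called genes per pathway list with the largest change in each hepatocyte comparison, and the 3 genes most alike each member. A gene that this rule named is not reported here. Scripts were tested on simulated data. Nothing in the labels ties libraries to separate animals beyond their being separate samples, so p-values measure the spread between these libraries, which may be partly technical.

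The alternatives were pseudocounts of 0.1 and 10, no filter, the sum over transcripts, the replicate number as a block, the genotypes compared alone, a marker score as covariate, leaving out each library, and for rhythms the series entered once and a ratio of 2. Leaving out each time point, or the ScapKO ZT22 libraries, was added after seeing the data. Unexplained numbers in the ScapKO column names were not used. Promoter sequences were from RefSeq, GRCm38.p6, and no coordinates were converted between builds.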

Additional observations from a re-analysis of the deposited data

Results flagged for a closer look

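Stat5a in hepatocytes was the one member whose groups separated in opposite directions at different times. Relative to Control, all 3 RevDKO libraries were higher at ZT10 (ratio of means 1.45) and all 3 were lower at ZT16 (0.684). Relative to Control, all 3 RevScapTKO libraries were also higher at ZT10 (1.45), and all 3 were lower at ZT4 (0.775). The difference between those time points was not tested for either pair by itself. The limma test of a changed 24 h pattern, which covers all 4 times, gave an adjusted p of 0.374 for Stat5a in RevDKO minus Control. Libraries did not overlap at these times in 17.1% and 14.6% of all genes for RevDKO and in 28% (ZT10) and 25.5% (ZT4) for RevScapTKO. Both observations share the Control libraries of ZT10. Groups held 3 libraries each and were not screened for single outlying values.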

How the results depend on the processing

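Depth is unknown, so low genes such as Socs2 and Cish cannot be given a counting error, and differences under their library-to-library spread were not detectable. Over the alternatives, 1704 values of single members for a genotype difference in the mean over the day were compared with the main fit. Of these, 1558 kept their direction and side of the threshold, 51 lost significance and 8 gained it. A further 87 changed direction without a call in either fit, and 0 changed direction while called. Of 847 counts of members called, 735 stayed within 1.5 times the value reported, and the others follow, with causes not tested. A count can hold while its members change.

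For RevScapTKO minus RevDKO in hepatocytes (2 called) the count was 1 with a pseudocount of 0.1, with the sum over transcripts, with the marker covariate (Bcl6, -1.11, adjusted p = 0.0342 by limma), without ZT10 and without ZT22, and 0 with no filter, with the genotypes compared alone and without ZT4. Ghr and Igfals each stayed called in 8 of 24 fits without 1 library (-0.48 to -0.25 and -0.50 to -0.29), and the count ranged from 0 to 2. Without ZT16 it stayed 2, with Igfals lost and Bcl6 gained (-0.83, adjusted p = 0.0317). At ZT4 (1 called) it was 0 with the marker covariate and 0 to 2 without single libraries. For RevScapTKO minus Control in hepatocytes (1 called) it was 0 with the marker covariate and without ZT4, 2 without ZT10 (Stat5a, -0.35, adjusted p = 0.0239) and 1 to 2 without single libraries.

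In LMs the count for RevScapTKO minus RevDKO (1 called) was 0 without ZT10, ZT16 or ZT22, and stayed 1 with the marker covariate, with Igfals lost and Igf1 gained (-0.84, adjusted p = 0.03). For RevScapTKO minus Control (0 called) it was 1 with the marker covariate (Igf1, -0.75, adjusted p = 0.0182), 1 without the libraries with high Alb (Igfals, -0.78, adjusted p = 0.0146) and 0 to 1 without single libraries.

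Between time points (0 called) the count was 1 in RevScapTKO hepatocytes with the replicate block (Igfals, adjusted p = 0.0471), 1 in RevDKO LMs with the block (Ghr, adjusted p = 0.0468) and 1 in Control and RevDKO LMs without the libraries with high Alb (Igfals, adjusted p = 0.0385 and 0.0277). Without single libraries it ranged from 0 to 1 in Control and RevDKO hepatocytes and in Control and RevDKO LMs, and from 0 to 2 in RevScapTKO hepatocytes. In ScapKO hepatocytes (1 called) it was 2 with a pseudocount of 10 (Cish, adjusted p = 0.0477), 3 without ZT22 and 1 to 3 without single libraries.

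With the series entered once JTK_CYCLE called 0 members in every set. With a ratio of 2 it called 0 in Control hepatocytes, RevDKO hepatocytes and ScapKO LMs and 3 in ScapKO hepatocytes, where the sum over transcripts also gave 3. Without single libraries it called 1 to 3 in Control, 2 to 4 in RevDKO and 0 to 1 in RevScapTKO hepatocytes, 0 to 2 in Control, 0 to 2 in RevDKO and 1 to 2 in RevScapTKO LMs, 0 to 5 in ScapKO hepatocytes and 0 to 3 in ScapKO LMs.

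The labels tie a number to nothing shared, so the main tests did not pair libraries by number. Numbers did enter the replicate block and the matching of hepatocyte with LM libraries. Between genotypes, same-number deviations correlated from -0.14 to 0.28 in hepatocytes and from -0.20 to 0.37 in LMs. Every number was above 0.1 in 1 of 12 group pairs in each. In each of 36 comparisons, a library of 1 genotype was set against the 3 libraries of another at the same time. Control libraries were used more than once, and RevScapTKO libraries only as candidates. The best match had the same number in 22 comparisons in hepatocytes and 20 in LMs. With 3 candidates, 1 in 3 would match by chance, and the excess is a hint from the data that was not tested. The replicate block changed no other count than those given.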
